A study of Mus musculus with 12 samples.

Results

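Chromatin remodellers and histone acetylation complexes were followed through the splicing of their nascent transcripts after acute loss of METTL3, the enzyme that writes N6-methyladenosine on RNA. The set held every tested intron cluster whose gene was Bptf, Ep300, Ep400, Crebbp, Trrap, Srcap or Hcfc1, or whose gene symbol began with Smarc, Arid, Ino80, Hdac, Sirt, Baz, Actl6 or Phf, or with Chd, Brd, Kat, Mta or Ing followed by a digit. It comprised 158 of the 7263 tested clusters, with 426 of 20437 introns, from 67 genes. The rule reads gene names and no measured value, but it was set with earlier results of these data known. A further 21 clusters of such genes were listed but not tested, 14 for too few valid samples and 7 for low coverage, and Brd9, Chd7, Phf14 and Sirt6 had no tested cluster at all.

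The cells were female mouse embryonic stem cells of a 129S x Cast background, grown on feeder fibroblasts inactivated with mitomycin C. All carried FKBP12F36V fused to the C terminus of Mettl3 and a doxycycline-inducible Xist, in 2 clones, C3 and H5. Ctrl cells received no dTAG-13 (0 h) and dTAG cells received dTAG-13 for 3 h, which directs the tagged METTL3 protein to degradation, before 30 min of 4-thiouridine (4sU) labelling and purification of the labelled RNA. There were 6 Ctrl and 6 dTAG samples, 3 for each clone and condition. The processed tables gave 1 value per condition with both clones together, so neither the spread between samples nor a difference between clones could be shown, and the read depth behind each value is unknown.

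Chromatin remodellers are ATP-driven machines that slide, evict or exchange nucleosomes, and fall into the SWI/SNF, ISWI, CHD and INO80 families. Histone acetyltransferases add acetyl groups to histone tails, deacetylases remove them, and bromodomain proteins such as the BET family bind the acetylated tails. In embryonic stem cells these complexes keep enhancers and promoters of the pluripotency programme open or poised. A LeafCutter cluster is a set of introns joined by shared splice sites. PSI is the share of the split reads of a cluster that fall on 1 intron. It was fitted over the 6 samples of a condition and is not a counted fraction of reads. deltaPSI is dTAG PSI minus Ctrl PSI. Clusters had been tested by LeafCutter's likelihood-ratio test across the 12 samples, whose p-values come from the chi-square distribution and measure the spread between these samples, which may be technical. An exact test would need values per sample and was not possible.

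Members passed the test at shares close to those of all tested clusters. At an adjusted p under 0.05, 1 of the 158 member clusters passed (0.633%), against 0.702% of all tested clusters. At an adjusted p under 0.2, 2 passed (1.27%), against 1.58% overall. At an unadjusted p of at most 0.05, 9 clusters of 9 genes passed (5.7%), against 6.84% overall. Each share lies near its background, and none is a result about the members. The size of a cluster's change is given here as the highest absolute deltaPSI among its introns. Its median was 0.022 in members (quartiles 0.00996 and 0.0372) and 0.0214 over all tested clusters. A largest change of at least 0.05 was seen in 22 member clusters (13.9%), against 19.8% of all, and one of at least 0.1 in 4 (2.53%), against 4.63% of all.

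The 9 clusters were in Hcfc1, Ing1, Smarcad1, Kat7, Ing4, Kat14, Ino80e, Brd3 and Brd2. Hcfc1 passed an adjusted p of 0.05 and Ing1 an adjusted p of 0.2. The other 7 passed the unadjusted threshold alone, with adjusted p-values between 0.224 and 0.679. Just outside the threshold were clusters of Baz2a (chi-square p = 0.0562) and Kat6b (chi-square p = 0.0621).

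The splice sites at which these clusters differ were read from the GRCm38.p6 assembly, which is the sequence of mm10, the build of the deposited coordinates. Each 5′ splice site (donor) is shown as 3 exonic and 6 intronic bases and each 3′ splice site (acceptor) as 20 intronic and 3 exonic bases, written as DNA in the direction of transcription. Capitals mark the GT that opens and the AG that closes the intron.
Hcfc1 donor used in Ctrl and dTAG: aagGTaagt
Hcfc1 upstream donor: atgGTaatg
Ing1 upstream donor: aagGTacgg
Ing1 downstream donor: ccgGTaggc
Kat14 upstream donor: ggtGTgcgt
Kat14 downstream donor: ccaGTaagg
Kat7 upstream acceptor: ctggatctatggtattgcAGaga
Kat7 downstream acceptor: agattccgatttttctacAGatc
Ino80e upstream acceptor: tcctccctatccttctccAGgaa
Ino80e downstream acceptor: ctccttgcctccttcaacAGgct
Smarcad1 acceptor of the cassette exon: gctgcctgtattgcctgtAGcac
Smarcad1 donor of the cassette exon: tcaGTgagt
Ing4 acceptor of the cassette exon: caggcctgtctctgttgtAGacc
Ing4 donor of the cassette exon: atgGTatgg
Brd3 acceptor of the cassette exon: gtttcgctttgatcccgcAGact
Brd3 donor of the cassette exon: cagGTgctt
All 22 introns of these clusters began with GT and ended with AG. The common Hcfc1 donor, aagGTaagt, and the rarer one, atgGTaatg, differ in both their exonic and their intronic bases. Of the 22 introns, 5 in 4 of the clusters were not in the GENCODE vM21 annotation.

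Acetyltransferases and their subunits held 4 of the 9 clusters. The list had 16 tested genes and 39 clusters, of which 4 (10.3%, against 6.84% of all tested clusters) had p of at most 0.05 and 1 an adjusted p under 0.05, with a median largest change of 0.0254. Hcfc1 encodes host cell factor C1, a scaffold protein of the NSL acetyltransferase and SET1/MLL methyltransferase complexes that is itself cut into pieces by O-GlcNAc transferase. Its cluster on chrX joined 2 donors to 1 acceptor. The annotated 132-base intron (chrX:73949066-73949197, minus strand, between coding exons) had a PSI of 1.000 in Ctrl and 0.882 in dTAG. A 1287-base intron (chrX:73949066-73950352) that is not annotated had a PSI of 8.5e-09 in Ctrl and 0.118 in dTAG. The Ctrl value is a fit at the lower end of the scale. The number of reads and of samples behind either value is unknown, so absence of use in Ctrl was not shown. The cluster had a chi-square p = 7.01e-08 and an adjusted p of 5.65e-05, the lowest of the members. The upstream donor lies 1155 bases before the annotated one, inside exon 17 of the 26 annotated exons. This exon is 1504 bases long, and the stretch removed overlaps coding sequence and is a multiple of 3 in length.

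The other 2 tested Hcfc1 clusters stayed on the other side of the threshold. One held acceptors 132 bases apart, with a largest change of 0.0464 and a chi-square p = 0.376. The other held acceptors 3 bases apart, with a largest change of 0.0108 and a chi-square p = 0.734.

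**Figure D1:**
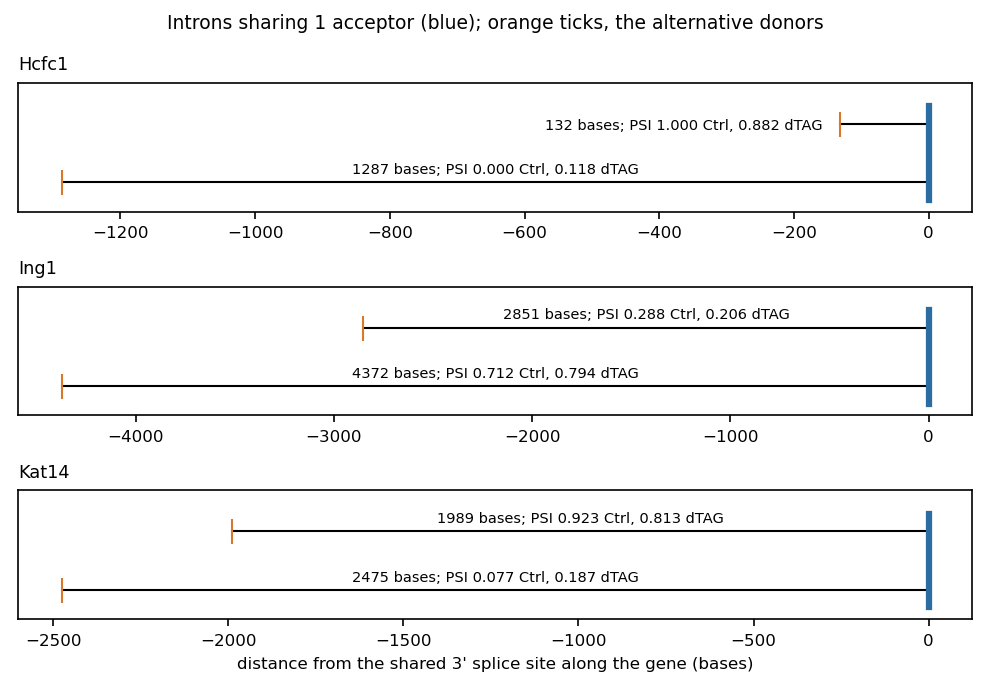
Introns of the Hcfc1, Ing1 and Kat14 clusters drawn to scale within each panel, as distance in bases from the shared acceptor (blue bar) back to each alternative donor (orange ticks), with the PSI of each intron in Ctrl and dTAG. The longer intron had PSI values in dTAG and Ctrl of 0.118 and 8.5e-09 in Hcfc1, 0.794 and 0.712 in Ing1 and 0.187 and 0.0774 in Kat14. These 3 were picked by p, and their shared direction is no trait of the 31 member clusters with an alternative 5′ end. Among the others the longer intron was lower in dTAG in Smarcb1 (0.784 against 0.826 in Ctrl) and higher in Smarca1 (0.925 against 0.834).

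Kat14 encodes the acetyltransferase-like subunit of the ATAC complex. Its cluster on chr2 (plus strand) joined 2 annotated donors, 486 bases apart in exon 2 of 11, to 1 acceptor. The intron from the downstream donor (chr2:144373856-144375844) had a PSI of 0.923 in Ctrl and 0.813 in dTAG. The intron from the upstream donor (chr2:144373370-144375844) had a PSI of 0.0774 in Ctrl and 0.187 in dTAG, a deltaPSI of 0.11. The cluster had a chi-square p = 0.0169 and an adjusted p of 0.472. The 486 bases between the donors hold 1 annotated start codon of Kat14, and the intron that removes them is annotated in the 5′ untranslated region of a second coding transcript. The same bases overlap the last exon of Pet117, a gene on the same strand, so unsplit reads there could come from either gene. PSI is fitted to split reads only, and both introns of the cluster are annotated in Kat14 transcripts and in none of Pet117.

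Kat7 encodes the MYST-family acetyltransferase HBO1, which acetylates histone H3 and H4. Its first intron had an annotated acceptor at chr11:95306197-95310034 (minus strand) with a PSI of 0.897 in Ctrl and 0.947 in dTAG. The acceptor 52 bases further downstream (chr11:95306145-95310034), in coding exon 2, belonged to an intron not annotated, with a PSI of 0.103 in Ctrl and 0.0526 in dTAG. The cluster had a chi-square p = 0.00751 and an adjusted p of 0.326, and 52 bases is not a multiple of 3. A second Kat7 cluster, around a 107-base cassette exon, had a chi-square p = 0.079, and the third, around a 90-base cassette exon, had a chi-square p = 0.861.

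Ing4 encodes a PHD-finger protein that brings the HBO1 complex to methylated histone H3. Its cluster, which the deposited table also assigned to the overlapping gene model Gm44597, held the 167-base coding exon 3 (chr6:125046904-125047070, plus strand). The skipping intron (chr6:125044026-125047210), not annotated, had a PSI of 0.176 in Ctrl and 0.0924 in dTAG. The upstream inclusion intron had a PSI of 0.516 in Ctrl and 0.581 in dTAG, and the downstream inclusion intron a PSI of 0.307 in Ctrl and 0.327 in dTAG. The deltaPSI of the skipping intron was -0.084, or -0.131 with the inclusion introns averaged, and the cluster had a chi-square p = 0.0126 and an adjusted p of 0.417. A second Ing4 cluster had a chi-square p = 0.574.

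The remaining acetyltransferase genes had no cluster at p of at most 0.05. Trrap, the large scaffold of the SAGA and TIP60 complexes, had the most tested clusters of this list, 6, with a lowest p of 0.356 and no change over 0.036. Brd8, a bromodomain subunit of TIP60, had the largest change among clusters over the threshold, a deltaPSI of -0.0466 (PSI 0.355 in Ctrl and 0.308 in dTAG, chi-square p = 0.516). Crebbp, Ep300 and Kat5, chosen after their values were seen because they are the best-known enzymes of the list, each had a coding cassette exon. The skipping PSI of the 114-base Crebbp exon was 0.0508 in Ctrl and 0.0571 in dTAG (chi-square p = 0.857). That of the 138-base Ep300 exon was 0.0905 in Ctrl and 0.0892 in dTAG (chi-square p = 0.652). The 156-base exon of Kat5, the catalytic subunit of TIP60, was skipped at a PSI of 0.605 in Ctrl and 0.606 in dTAG (chi-square p = 0.974).

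Among deacetylases and their subunits, 1 of 11 clusters (9.09%) had p of at most 0.05, against 6.84% of all tested clusters. It was in Ing1, which encodes a PHD-finger subunit of the SIN3 deacetylase complex. The Ing1 cluster on chr8 (plus strand) joined 2 alternative donors, 1521 bases apart and in different annotated 5′ exons, to the same acceptor. The intron from the upstream donor (chr8:11557046-11561417) rose from a PSI of 0.712 in Ctrl to 0.794 in dTAG. The intron from the downstream donor (chr8:11558567-11561417) fell from 0.288 to 0.206. The cluster had a chi-square p = 7.38e-04 and an adjusted p of 0.0789, under the looser threshold only, and it did not pass that threshold with the Benjamini-Yekutieli adjustment. The upstream intron is annotated within coding sequence, and the downstream one in the 5′ untranslated region of another coding transcript. Hdac3, the catalytic subunit of the NCoR complex, had the largest change of the list among clusters over the threshold, a PSI of 0.504 in Ctrl and 0.467 in dTAG for 1 inclusion intron of an 80-base exon (chi-square p = 0.431). Sirt1, the NAD-dependent deacetylase, had the most clusters, 3, with a lowest p of 0.14 and no absolute deltaPSI over 0.00901.

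BET bromodomain readers had 2 clusters at p of at most 0.05 among 9 from 3 genes (22.2%), against 6.84% of all tested clusters, and with 9 clusters this share is a description only. Brd3 had 1 tested cluster, around a 51-base coding exon (chr2:27453400-27453450, minus strand), exon 9 of 13 in the longest annotated transcript that holds it. The skipping intron (chr2:27453075-27454312) had a PSI of 0.621 in Ctrl and 0.715 in dTAG. The inclusion introns had PSI values of 0.228 and 0.151 in Ctrl and of 0.18 and 0.106 in dTAG. All 3 introns were annotated in coding transcripts, the exon is a multiple of 3 in length, and the cluster had a chi-square p = 0.0376 and an adjusted p of 0.671.

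Brd2 had 5 tested clusters. The one with p of at most 0.05 (chi-square p = 0.0393, adjusted p of 0.679) joined 1 donor to 3 acceptors in intron 7 (chr17:34114479-34114889, minus strand, for the coding form). The coding acceptor had a PSI of 0.902 in Ctrl and 0.883 in dTAG. An acceptor 172 bases upstream of it, annotated in a transcript marked for nonsense-mediated decay (NMD, the pathway that degrades RNA with early stop codons), had a PSI of 0.0764 in Ctrl and 0.1 in dTAG. An acceptor 25 bases upstream, also annotated for NMD, had a PSI of 0.0214 in Ctrl and 0.017 in dTAG. The largest change of any member cluster was at the first exons of Brd2, where the intron from the most downstream first exon had a PSI of 0.466 in Ctrl and 0.586 in dTAG. That cluster had a chi-square p = 0.131, so the difference of 0.12 did not pass the test. The 92-base Brd2 exon annotated for NMD was skipped at a PSI of 0.554 in Ctrl and 0.548 in dTAG (chi-square p = 0.899).

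**Figure D2:**
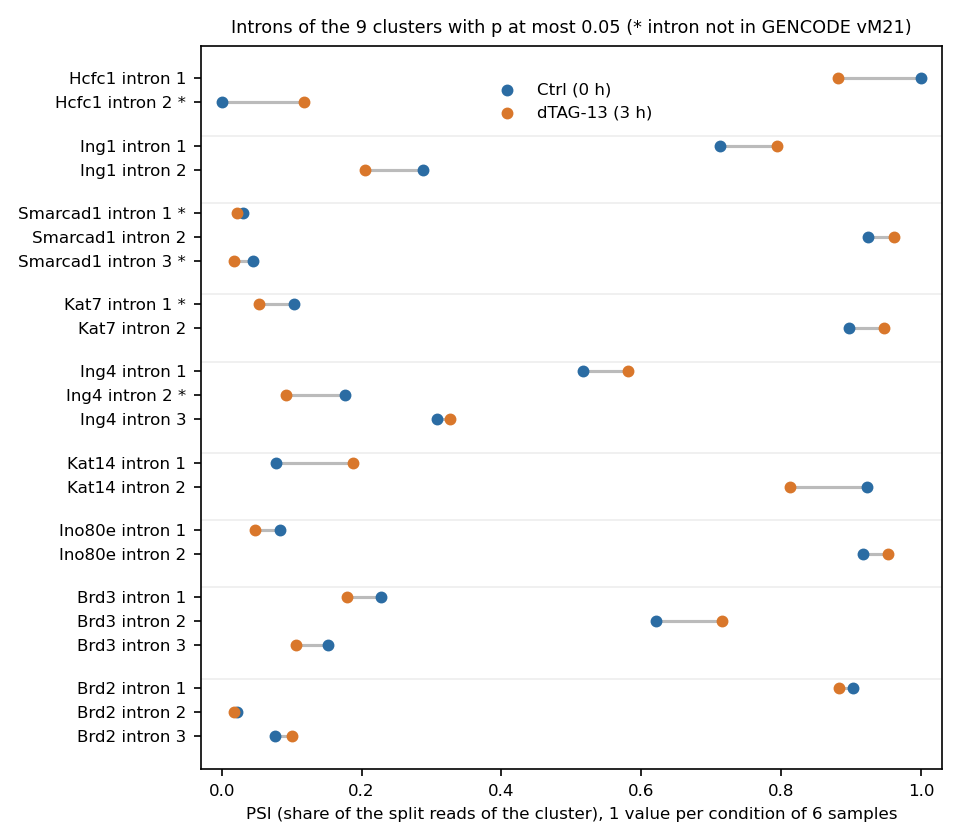
PSI (horizontal axis, fitted share of the split reads of the cluster) of the 22 introns in the 9 clusters with p of at most 0.05. Each intron has 1 value for Ctrl (blue) and 1 for dTAG (orange) and no error, since 1 value per condition was given. Introns are numbered by genomic position within a cluster, asterisks mark the 5 not annotated, and the unannotated Hcfc1 intron moved from 8.5e-09 to 0.118.

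Among the remodellers, the clusters at p of at most 0.05 were 1 of 14 (7.14%) in the list of INO80, SRCAP and p400 remodellers and 1 of 8 (12.5%) among the other SNF2 ATPases, against 6.84% of all tested clusters. Smarcad1 encodes a SNF2-family ATPase that maintains silent chromatin through replication, and had 8 tested clusters. One of these held a 104-base cassette exon (chr6:65090757-65090860, plus strand) inside a coding intron, with no annotated exon at its place. The skipping intron (chr6:65090187-65092494), which is the annotated one, had a PSI of 0.924 in Ctrl and 0.961 in dTAG, a deltaPSI of 0.0366, or of 0.0194 with the inclusion introns averaged. The inclusion introns had PSI values of 0.0304 and 0.0454 in Ctrl and of 0.0212 and 0.0179 in dTAG. The cluster had a chi-square p = 0.00382 and an adjusted p of 0.224. The other 7 Smarcad1 clusters had p-values of 0.123 or more and changes of at most 0.0235.

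Ino80e encodes a subunit of the INO80 complex, which remodels nucleosomes carrying the variant H2A.Z. Its 86-base intron (chr7:126857788-126857873, minus strand) had a PSI of 0.917 in Ctrl and 0.953 in dTAG. The intron to an annotated acceptor 65 bases downstream, in coding sequence, had a PSI of 0.0834 in Ctrl and 0.047 in dTAG. The cluster had a chi-square p = 0.0281 and an adjusted p of 0.603. Ino80e had 4 tested clusters, as had Ep400, the most in the list of INO80, SRCAP and p400 remodellers, whose 14 clusters had a median largest change of 0.0277. In that list the largest change over the threshold was in Ino80d, between acceptors 91 bases apart (PSI of the upstream one 0.409 in Ctrl and 0.324 in dTAG, chi-square p = 0.222). Both introns are annotated in the 5′ untranslated region of coding transcripts, but the 91 bases between the acceptors overlap annotated coding sequence.

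SWI/SNF, ISWI and CHD with NuRD had no cluster at p of at most 0.05 among 10, 15 and 37 tested, where the background of 6.84% stands for the whole table. Their median sizes of change were 0.0159, 0.0256 and 0.02. Actl6a and Brd7 had 2 clusters each, the most of the SWI/SNF list, with lowest p-values of 0.28 and 0.213. The core ATPase gene Smarca4 had 1 tested cluster (chi-square p = 0.312). In ISWI the largest change was in Baz2b, where an inclusion intron of a 285-base exon had a PSI of 0.607 in Ctrl and 0.509 in dTAG (chi-square p = 0.449). Bptf, the reader subunit of the NURF complex, had 5 clusters and a lowest p of 0.335. In the CHD and NuRD list the largest change was in Chd3, an ATPase of NuRD, between acceptors 18 bases apart. The upstream acceptor of Chd3 had a PSI of 0.21 in Ctrl and 0.33 in dTAG, with a chi-square p = 0.121. Chd2 had 9 tested clusters, the most of any member, with a lowest p of 0.158 and changes of at most 0.0711. Chd4, the NuRD ATPase of stem cells, had 4 clusters, with a largest change of 0.02.

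PHD finger proteins had 14 clusters from 9 genes and the highest list median, 0.0403, with none at p of at most 0.05. The largest change was in Phf21a, a subunit of the CoREST deacetylase complex, where 1 of 3 introns had a PSI of 0.0982 in Ctrl and 0.175 in dTAG (chi-square p = 0.123). Phf8, Phf12, Phf19, Phf20l1 and Phf21a had 2 clusters each, with lowest p-values between 0.0804 in Phf12 and 0.817 in Phf8. The ARID DNA-binding proteins had 1 tested cluster, in Arid5b (chi-square p = 0.343, largest change 0.00579).

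**Figure D3:**
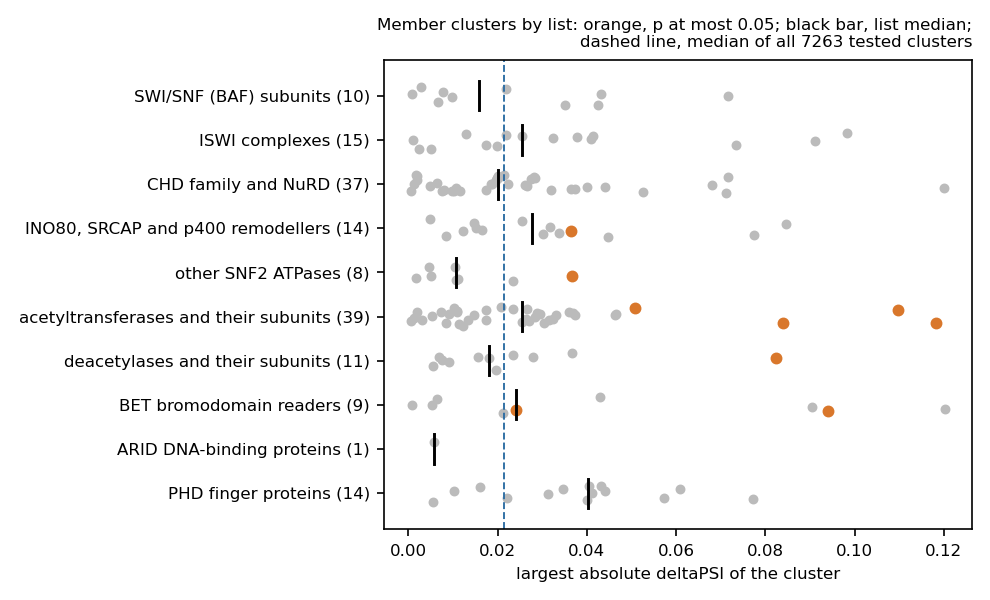
Largest absolute deltaPSI (horizontal axis) of each of the 158 member clusters, grouped by list with the number of clusters in brackets; vertical scatter within a list has no meaning. Orange points have p of at most 0.05, black bars are list medians, from 0.00579 in the single ARID cluster to 0.0403 in PHD finger proteins, and the dashed line is the median of all tested clusters, 0.0214.

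By event type, 47 member clusters (29.7%) held a single cassette exon, 53 (33.5%) an alternative 3′ end and 31 (19.6%) an alternative 5′ end. Over all tested clusters these shares were 33.3%, 25.2% and 22.2%. Alternative ends take in splice sites and first or last exons alike. A further 7 members had several ends at 1 site and 20 were complex. Of the 39 member cassette exons that are annotated and overlap coding sequence, 20 (51.3%) had a length that is a multiple of 3, against 47.0% of 1918 over all tested clusters. The skipping PSI was higher in dTAG in 31 of the 47 member cassettes (66.0%), against 57.1% of 2415 over all, and the median deltaPSI of the skipping intron was 0.00381 in members and 0.00193 over all. Introns not annotated made up 24.6% of member introns and 25.3% of all introns. Introns annotated for NMD and in no coding transcript made up 4.93% and 4.84%. Their PSI was higher in dTAG in 7 of 21 member introns (33.3%) and in 544 of 989 over all tested clusters (55.0%). Their median PSI was 0.073 in Ctrl and 0.0765 in dTAG in members, and 0.0753 and 0.0781 over all. Introns of 1 cluster are not independent, so the sign counts are a description only.

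Tandem acceptors, a pair of AG dinucleotides 3 bases apart, add or leave out a single codon in coding exons. They made up 20 of the 53 member clusters with an alternative 3′ end (37.7%), against 481 of 1832 (26.3%) over all tested clusters. Windows from 18 bases before to 3 bases after the 3 alternative bases are shown for some of the members with the lowest p and for catalytic or core subunits, with both AG pairs in capitals.
Baz2a (chr10:128113442-128113465, plus strand): ttctttcacccccataAGcAGagc
Kat6b (chr14:21668313-21668336, plus strand): ttttgtctcctcattaAGaAGatg
Chd4 (chr6:125120187-125120210, plus strand): gccctccctctgtcccAGgAGgaa
Smarca4 (chr9:21699782-21699805, plus strand): cagcatgtccccttacAGcAGcag
Ino80 (chr2:119380116-119380139, minus strand): tgacctttgtattcccAGaAGaaa
Kat2a (chr11:100708980-100709003, minus strand): ccctgtcatcctccccAGcAGggg
The base between the AG pairs was most often c, as in Baz2a, Smarca4 and Kat2a. The upstream AG had a PSI between 0.06 and 0.979 in Ctrl, over 0.5 in 10 of the 20 members, with a median of 0.572 in Ctrl and 0.569 in dTAG. In Baz2a, a subunit of the nucleolar remodelling complex, its PSI was 0.225 in Ctrl and 0.298 in dTAG (chi-square p = 0.0562). In Smarca4 it was 0.74 in Ctrl and 0.696 in dTAG (chi-square p = 0.312). Chd4 and Kat2a had PSI values of 0.869 and 0.384 in Ctrl and 0.849 and 0.387 in dTAG. None of the 20 had p of at most 0.05, against 3.53% of tandem acceptors over the whole table, and the upstream AG was higher in dTAG in 7 and lower in 13.

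**Figure D4:**
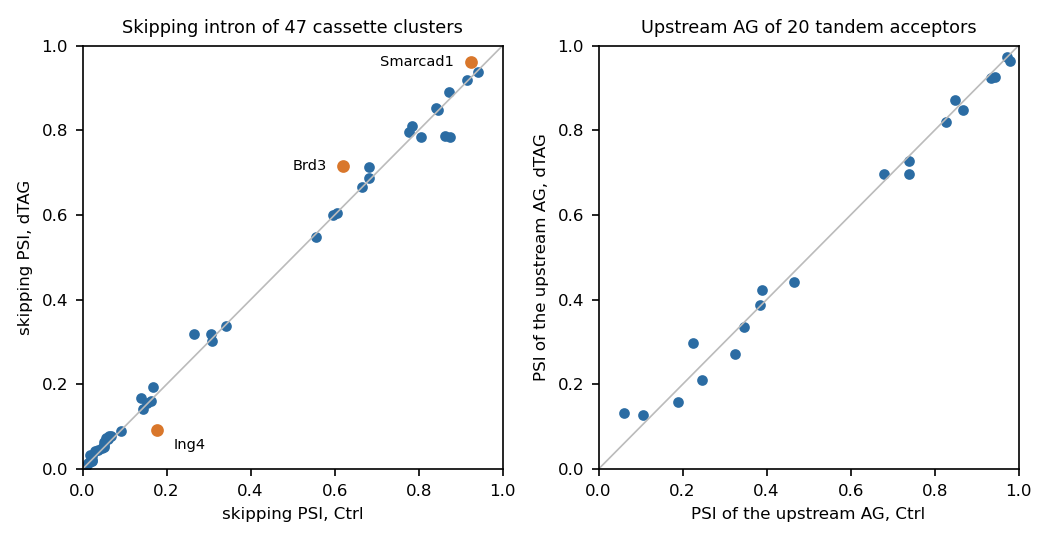
PSI in Ctrl (horizontal axis) against dTAG (vertical axis), 1 point per member cluster, for the skipping intron of 47 cassette clusters (left) and the upstream AG of 20 tandem acceptors (right). The grey line marks equal values. Orange points have p of at most 0.05 (Smarcad1 and Brd3 above the line, Ing4 below), and no tandem acceptor does.

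METTL3 acts on adenosines in motifs of which GGACT, written as DNA, is the best known. It was searched on the RNA strand in 200-base windows centred on each splice site. It was present in 16.0% of 288 donor windows of members, against 18.8% of 13988 over all tested clusters, and in 17.3% of 294 acceptor windows, against 16.0% of 13545. In the 9 clusters with p of at most 0.05, 4 of 31 windows held it, shown here with 10 bases on each side and the motif in capitals.
Ing1, 77 bases before the upstream donor (chr8:11556969-11556973, plus strand): aggattacctGGACTcaatcgagtc
Ing1, 32 bases after the downstream donor (chr8:11558599-11558603, plus strand): gcctctgtcgGGACTgcgggtctgt
Smarcad1, 30 bases before the donor upstream of the cassette exon (chr6:65090157-65090161, plus strand): gcataagcatGGACTtaatggcatt
Brd2, 35 bases after the NMD acceptor that lies 172 bases upstream of the coding one (chr17:34114611-34114615, minus strand): ccaaatctttGGACTtcaaacttga
The Hcfc1 windows did not hold these letters, but bases outside the windows and other forms of the motif were not searched. A match describes sequence only, and methylation was not measured here.

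Other subunits of the same complexes, given as lists of partners, also passed at a share near the 6.84% of all tested clusters. Of 168 clusters from 67 tested partner genes, 10 (5.95%) had p of at most 0.05 and 3 an adjusted p under 0.2, with a median largest change of 0.0213. Those 3 were Cecr2, a partner of ISWI ATPases (PSI 0.374 in Ctrl and 0.521 in dTAG, adjusted p of 0.107), Zzz3 of the ATAC complex (0.393 and 0.316, adjusted p of 0.121) and Kansl1 of the NSL complex (0.295 and 0.22, adjusted p of 0.149). At an unadjusted p of at most 0.05, partners of NuRD had 4 clusters of 17 (23.5%), against 6.84% of all tested clusters. These were in Mbd2, Mbd3 and Zmynd8, with adjusted p-values between 0.295 and 0.687. At the same threshold, partners of SAGA and ATAC had 2 of 28 (7.14%) and those of ISWI 1 of 9 (11.1%). Partners of MYST, NSL and MSL had 1 of 26 (3.85%), those of SIN3, CoREST and NCoR 1 of 28 (3.57%) and other SNF2 ATPases 1 of 23 (4.35%). Partners of SWI/SNF and of INO80, SRCAP and TIP60 had none of 13 and of 24.

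**Figure D5:**
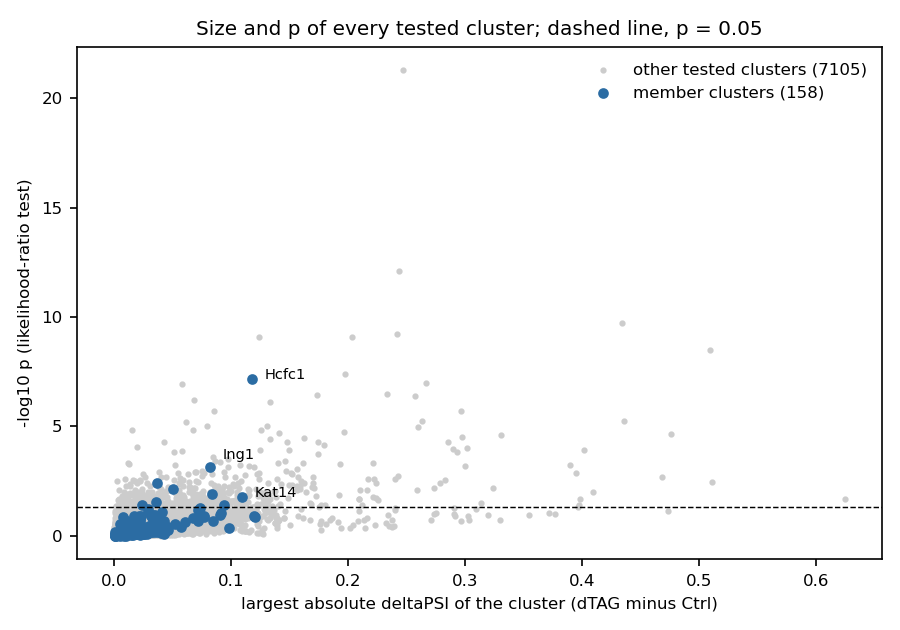
Largest absolute deltaPSI (horizontal axis) against −log10 of the likelihood-ratio p (vertical axis) for all 7263 tested clusters, with the 158 member clusters in blue and a p of 0.05 as a dashed line. Hcfc1 (0.118, chi-square p = 7.01e-08) stands above the other members, the next of which is Ing1 (0.0823, chi-square p = 7.38e-04).

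Mettl3 itself had 2 tested clusters, with chi-square p = 0.947 and p = 0.805. The degrader acts on the protein, so these values check no label. Of 16 pluripotency marker genes 11 had a tested cluster, and 2 of their 21 clusters (9.52%) had p of at most 0.05, 1 of them an adjusted p under 0.05. Of 14 fibroblast marker genes 2 had one (Fn1 and Sparc), and 1 of their 6 clusters (16.7%) had p of at most 0.05. Among all tested clusters 6.84% had p of at most 0.05 and 0.702% an adjusted p under 0.05. With so few marker clusters, these shares are a description only. The tables hold no expression level, and the part of feeder RNA in the results was not tested.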

How the data were processed

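Nascent RNA labelled with 4sU for 30 min from 12 samples was sequenced as stranded total RNA libraries. The submitters' processing notes name STAR 2.5.2b and mm10, and the authors grouped split reads into intron clusters and tested them with LeafCutter. The authors deposited 2 tables. The deposited cluster table gives a log likelihood ratio with its degrees of freedom, used here as scores, and a p-value and adjusted p-value. The deposited intron table gives PSI as a fraction for each condition, fitted over its 6 samples. Its natural-log effect and deltaPSI columns, which hold the authors' comparison, were not used. Neither table gives read counts, so the depth is unknown and PSI has no error.

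The p-value was recomputed as the chi-square tail of 2 times the log likelihood ratio and adjusted by Benjamini-Hochberg over all 7263 tested clusters (scipy 1.17.1, statsmodels 0.14.6). It differed from the deposited p-value by at most 7.63e-15. deltaPSI was dTAG minus Ctrl. Introns are printed from their first to their last base, which lie 1 base inside the deposited positions, and 74.7% of the 20437 introns matched an intron of GENCODE vM21. Sequences were read from RefSeq's GRCm38.p6, the assembly of mm10, with pysam 0.24.0. The p-value and adjustment steps were tested on simulated statistics. The event types and the gene-name rule were tested on set cases with known answers, and the other steps were not tested in this way. No count model could be fitted.

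The members and lists were chosen with earlier results of these data known. Named genes were those with a cluster at p of at most 0.05 and, in each list, the gene with the largest change over that threshold and the gene or genes with the most clusters. Alternatives covered the adjustment, clusters of several genes, the lists held as members, a minimum deltaPSI of 0.05 and how PSI was computed. Clones were pooled in the deposited test, so clone was no covariate. Some results of the member genes, including 1 gene that the naming rule gives, are not reported here.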

Additional observations from a re-analysis of the deposited data

How the results depend on the processing

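The 28 recomputed values included 24 that stayed within the set limits (1.5 times for counts and medians, 0.01 for the PSI of a named cluster), 4 that moved and 0 with a reversed sign. Many of the 24 could not have moved. No intron of a named cluster had PSI under 0.01 in both conditions, so dropping such introns changed nothing. The PHD finger and ARID lists held no cluster at p of at most 0.05. Deposited and recomputed adjusted p differed by at most 3.65e-14. With the Benjamini-Yekutieli adjustment, 1 member cluster (Hcfc1) in place of 2 had an adjusted p under 0.2, and Ing1 no longer passed. With both inclusion junctions averaged, the change of the skipping intron was 0.0194 in place of 0.0366 in Smarcad1, -0.131 in place of -0.084 in Ing4 and 0.0676 in place of 0.0939 in Brd3. The count at p of at most 0.05 was 8 without clusters of several genes, 9 without the PHD finger and ARID lists and 6 where the largest absolute deltaPSI had to be at least 0.05. The shares of all tested clusters under these alternatives were not computed, so these counts are no result about the members. A largest change of at least 0.05 was itself seen in 13.9% of members and 19.8% of all tested clusters. The median of the largest absolute deltaPSI lay between 0.0168 and 0.022 under the 3 alternatives, beside 0.016 to 0.0214 over all tested clusters. No paired analysis was possible because the tables hold no values per sample, and leaving out single samples could not be run for the same reason. Without read counts, no interval can be put on a PSI, so small PSI values and their changes have no known precision.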
